A study of Sus scrofa with 2 samples.

Results

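The miRNAs described here are those of the X-linked cluster that encodes miR-424 (called miR-322 in rodents), miR-503, miR-542 and the miR-450 group. Members were all tags that the deposited lists name miR-424, miR-322, miR-503, miR-542, miR-450, miR-450a, miR-450b or miR-450c, whatever the species prefix, copy number or arm. They came under 11 names, which were read as 8 member arms of 1382 miRNA names and arms in all. No tag carried the names miR-450 or miR-450c, and miR-503 and miR-450a were each listed with 1 arm, read here as 5p. The tissue was whole testis of boars of the Chinese white breed Junmu-1, sexually mature at 180 days of age or sexually immature at 30 days. Each age is 1 library of RNA pooled from 3 boars, so no replicate spread exists and no p-value is given. The 180-day library held 852209 miRNA-matched reads, of which 3623 in 336 tags belonged to the cluster. The 30-day library held 7525725 such reads, of which 45733 in 1645 tags belonged to it.

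miRNAs are short RNAs that repress messenger RNAs, chiefly by pairing through the seed, which is bases 2 to 8 counted from the 5′ end. The cluster is made from a common primary transcript and is best known for slowing cell division. miR-424 and miR-503 repress cyclins and the phosphatase CDC25A in human and mouse cells, and miR-424 has the seed of the miR-15 and miR-16 family, from which that of miR-503 differs by its last base. In the RefSeq annotation of the pig assembly Sscrofa11.1, MIR450B, MIR450A, MIR450C and MIR542 follow each other on chromosome X between HPRT1 and PLAC1. It lists no gene for miR-424 or miR-503 in this stretch.

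The sequences below are entries of the deposited lists, and the capitals mark the seed. For 7 of the 8 arms most reads followed the printed entry up to their last base or its end. For miR-450b-3p only 2 reads did so, and the mouse entry is shown as the one that gave the arm its name in all reads but 1. They are shown because the seeds group the members. miR-424-5p and miR-503 have the same bases 2 to 7 and part at base 8 (A8G, from miR-424-5p to miR-503, counted from the 5′ end). They were identical at 11 of 22 bases. miR-16 and miR-497, relatives outside the cluster, have the whole seed of miR-424-5p.
miR-424-5p: cAGCAGCAattcatgttttgaa
miR-503-5p: tAGCAGCGggaacagtactgcag
miR-16: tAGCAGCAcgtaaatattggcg
miR-497: cAGCAGCAcactgtggtttgt
The miR-450 arms form a second pair, identical at 16 of 22 bases and differing at base 7 within the seed (G7A, from miR-450a to miR-450b).
miR-450a-5p: tTTTGCGAtgtgttcctaatat
miR-450b-5p: tTTTGCAAtatgttcctgaata
The remaining arms have seeds of their own.
miR-424-3p: cAAAACGTgaggcgctgctat
miR-542-3p: tGTGACAGattgataactgaaa
miR-542-5p: tCGGGGATcatcatgtcacgaga
miR-450b-3p: aTTGGGAAcattttgcatgcat

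The cluster was a moderate part of the testis miRNA pool at both ages and took a smaller share of it in the 180-day library. Its share of miRNA-matched reads was 0.425% in the 180-day library, with an exact binomial 95% interval of 0.411 to 0.439%, against 0.608% (0.602 to 0.613%) in the 30-day library. This is 4251 against 6077 RPM, that is, reads scaled to 1000000 miRNA-matched reads, and a ratio of 0.700 (exact 95% interval 0.676 to 0.724). All intervals cover counting error only. They take reads as independent and are too narrow where reads are PCR copies, which are not independent molecules. The intervals compare 2 libraries, not the ages. In whole testis, fewer cells of a type and less of a miRNA per cell cannot be told apart.

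miR-424-5p, the arm with the seed shared with miR-16, was the most read member, although read numbers of different miRNAs also carry how well each is ligated and amplified. It had 1932 reads (2267 RPM) at 180 days, against 21616 reads (2872 RPM) at 30 days, a ratio of 0.789 (0.753 to 0.827). It ranked 50th of all names and arms by reads at 180 days and 41st at 30 days. Its opposite arm, miR-424-3p, had 469 reads (550.3 RPM) at 180 days, against 6891 (916 RPM) at 30 days, a ratio of 0.601 (0.546 to 0.660). miR-503, which shares bases 2 to 7 with it, had 674 reads (791 RPM) at 180 days, against 9922 (1318 RPM) at 30 days, a ratio of 0.600 (0.554 to 0.649). All 3 arms were lower in the 180-day library beyond counting error, and miR-424-5p least so.

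miR-542-3p, which in human cells represses the survival factor survivin, had 270 reads (317 RPM) at 180 days, against 4201 (558 RPM) at 30 days. Its ratio was 0.568 (0.49998 to 0.642), which did not reach a 2-fold difference. Among all members miR-450b-5p had the ratio nearest to 1. It had 168 reads (197 RPM) at 180 days, against 1716 (228 RPM) at 30 days, a ratio of 0.865 (0.733 to 1.01). miR-450a-5p had 92 reads (108 RPM) at 180 days, against 1063 (141 RPM) at 30 days, a ratio of 0.764 (0.611 to 0.946). The interval of miR-450b-5p included 1 while that of miR-450a-5p did not.

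The miR-542-5p and miR-450b-3p arms were scarce. miR-542-5p had 3 reads (3.52 RPM) at 180 days, against 144 (19.1 RPM) at 30 days, and was 5.44-fold lower at 180 days (1.82 to 26.7). The arm listed as miR-450b-3p had 15 reads (17.6 RPM) at 180 days, against 180 (23.9 RPM) at 30 days, a ratio of 0.736 (0.403 to 1.25). Where 3 reads equal 3.52 RPM at 180 days and 0.399 RPM at 30 days, neither arm could be followed in detail at 180 days.

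**Figure D1:**
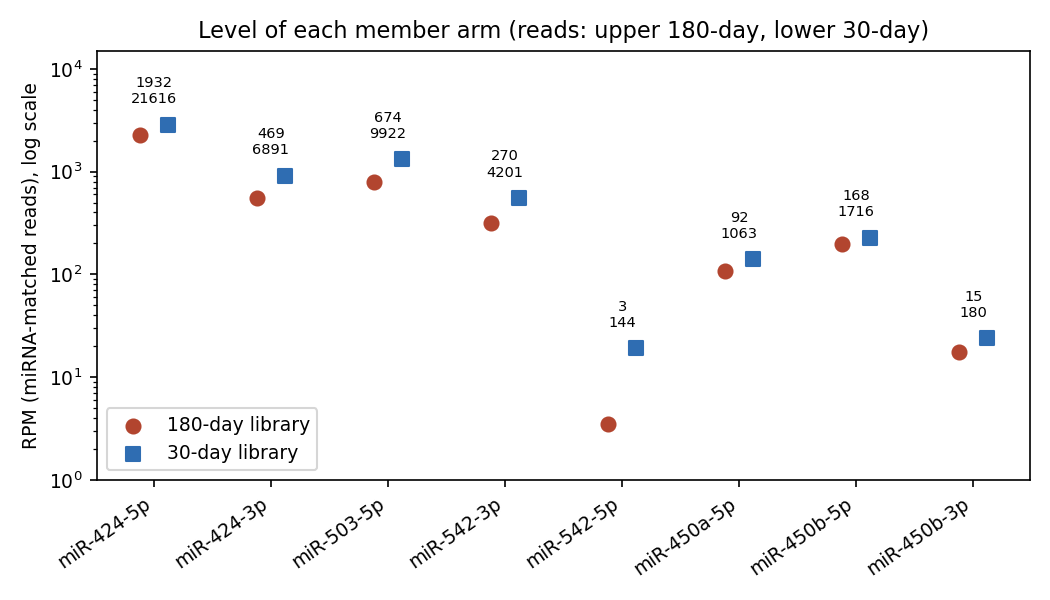
Level of each of the 8 member arms in RPM (log axis) in the 180-day library (circles) and the 30-day library (squares), 1 library per age, with the read numbers above (180-day over 30-day). The 180-day value lies below the 30-day value for each arm, from miR-424-5p at 2267 and 2872 RPM to miR-542-5p at 3.52 and 19.1 RPM.

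The calling rule asked for at least a 2-fold difference in either direction and an interval excluding 1. Of the 8 members, 0 were called higher and 1, miR-542-5p, was called lower. Over the 467 names and arms with 20 or more reads in both libraries together, 29.6% were called higher and 11.3% lower, so the share of members called lower, 1 of 8, was near that of all miRNAs. Over the 401 names and arms listed from mammalian entries, 27.4% were called higher and 11.2% lower. The ratio was below 1 for 8 of 8 members and for 41.1% of the 467 (42.4% of the mammalian 401). With perfectly matching tags alone the ratios of miR-450a-5p, at 1.21 (0.710 to 1.96), and of miR-450b-5p, at 1.06 (0.841 to 1.32), were above 1, and miR-450b-3p had no such tag. The members' median log2 ratio was -0.59, against 0.22 for the 467. Members are cut from shared precursors and a shared transcript, so they are not independent. Scaling changed the call count: per read of the whole library, taking the smallest library totals that fit the tag ranks, every member was called lower, as were 84.4% of all names and arms. At these totals miRNA-matched reads were 7.08% of the 180-day library and 59.2% of the 30-day library. The whole-library scaling shifts each log2 ratio by -3.06, a value that holds only for these totals, which are lower bounds. TMM shifts it by -0.35 and median-of-ratios scaling by -0.24. The members' ratios stayed below 1 under these 3 scalings.

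miR-542-5p was called from 3 reads at 180 days. With perfectly matching tags alone its ratio was 0.429 and no longer passed the rule, and for both arms of miR-542 summed it was 0.555.

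**Figure D2:**
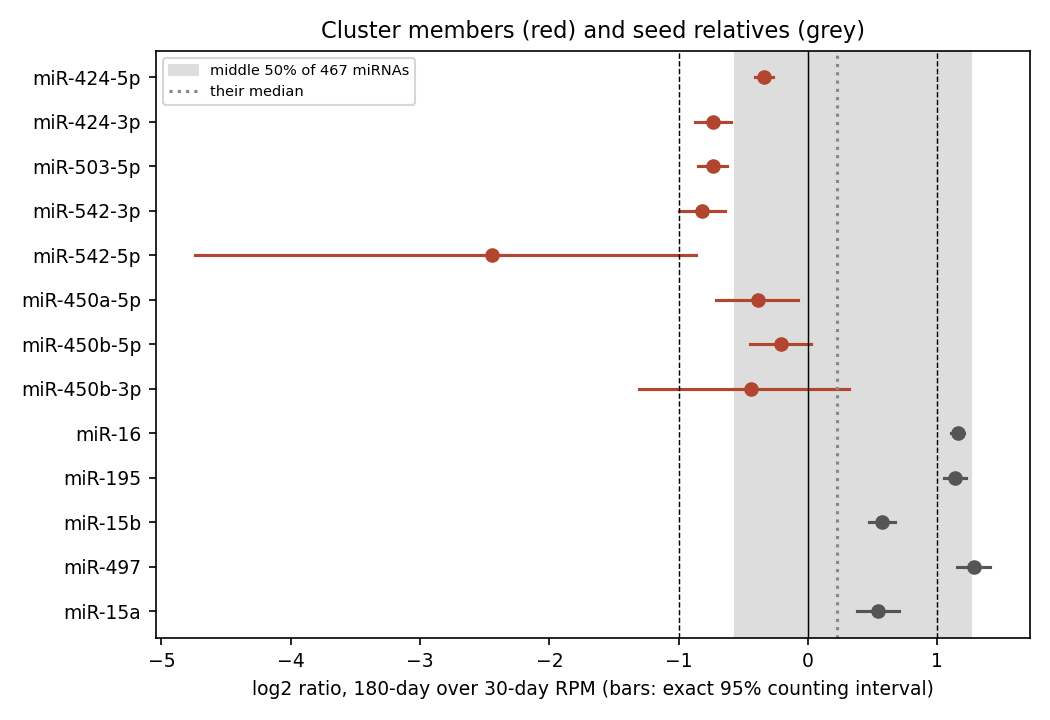
Log2 ratio of the 180-day to the 30-day RPM for the 8 cluster arms (red) and 5 seed relatives (grey), with exact 95% counting intervals as bars, the 2-fold limits dashed, and the middle of the distribution of 467 names and arms shaded. The cluster arms lie left of 0, from -2.44 to -0.21, and the relatives lie right of it, from 0.54 to 1.28, a side that flips at the whole-library totals.

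Values that do not depend on the library total were compared next. miR-424-5p took 53.3% of the cluster reads at 180 days (51.7 to 55.0%), against 47.3% at 30 days (46.8 to 47.7%). miR-503 took 18.6% at 180 days (17.3 to 19.9%), against 21.7% at 30 days (21.3 to 22.1%). miR-424-3p took 12.9% at 180 days (11.9 to 14.1%), against 15.1% at 30 days (14.7 to 15.4%), and miR-542-3p took 7.45% (6.62 to 8.36%) and 9.19% (8.92 to 9.45%). miR-450b-5p took 4.64% at 180 days (3.98 to 5.37%), against 3.75% at 30 days (3.58 to 3.93%). The intervals of the 2 libraries did not overlap for these arms. Nor did they for miR-542-5p, with 0.0828% at 180 days (0.0171 to 0.242%), from 3 reads, and 0.315% at 30 days (0.266 to 0.371%). How often such intervals part over all miRNAs was not counted, so this is no trait of the cluster. The share of miR-450b-3p was 0.414% at 180 days (0.232 to 0.682%) and 0.394% at 30 days (0.338 to 0.455%), which overlap. The share of miR-450a-5p was 2.54% at 180 days (2.05 to 3.11%), against 2.32% at 30 days (2.19 to 2.47%), which overlap. These shares depend on the tags kept. Perfectly matching tags leave out the most read miR-424-5p tag, which lacks a base of its entry. Among them miR-503 was the largest member, with 35.4% at 180 days and 34.3% at 30 days, which turns its direction. miR-424-5p had 18.6% of them at 180 days and 17.6% at 30 days.

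**Figure D3:**
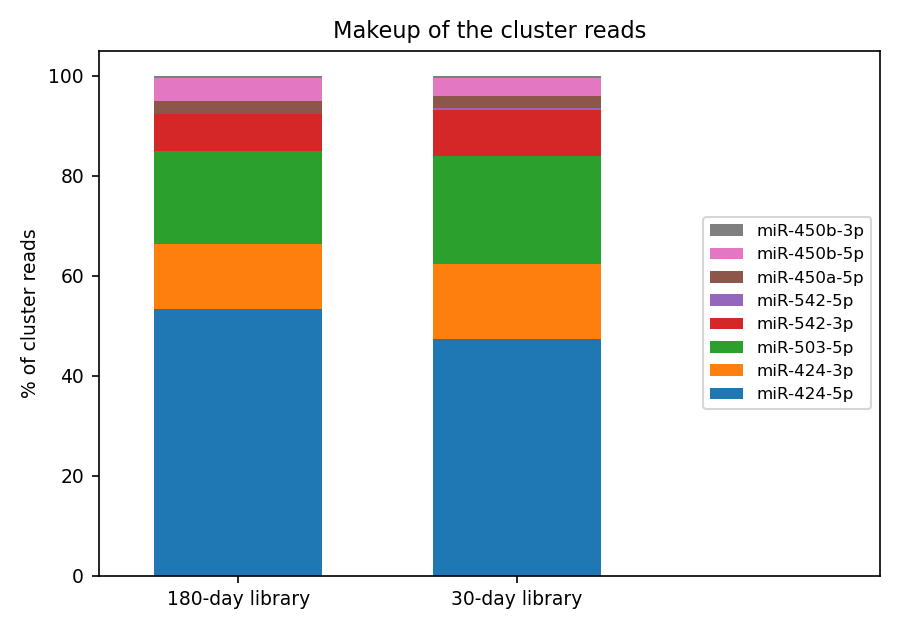
Share of the cluster's reads taken by each member arm, in percent, in the 180-day library (left bar, 3623 reads) and the 30-day library (right bar, 45733 reads). miR-424-5p takes 53.3% at 180 days and 47.3% at 30 days, and the order of the arms by share is the same in both bars.

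Quotients of read numbers within a library do not depend on its total. Reads of 12 pairs of arms were divided by each other in each library. miR-424-3p, miR-503 and miR-542-3p kept nearly constant quotients: miR-424-3p over miR-503 was 0.696 at 180 days, against 0.695 at 30 days, giving a ratio of quotients of 1.00 (exact conditional 95% interval 0.885 to 1.13). For miR-503 over miR-542-3p the ratio of quotients was 1.06 (0.912 to 1.23). miR-424-5p ran ahead of these arms. It had 2.87 reads for each of miR-503 at 180 days, against 2.18 at 30 days, giving a ratio of quotients of 1.32 (1.20 to 1.44). Against miR-542-3p the ratio of quotients was 1.39 (1.22 to 1.59). Against miR-450a-5p and miR-450b-5p it was 1.03 (0.829 to 1.30) and 0.913 (0.773 to 1.08), with intervals that include 1. The miR-450 arms were not divided by miR-424-3p, miR-503 or miR-542-3p. With perfectly matching tags the ratios of miR-424-5p, at 0.819 (0.700 to 0.953), and of miR-503, at 0.800 (0.715 to 0.893), lay close together, so the lead of miR-424-5p over miR-503 was not kept there. Those of miR-424-3p and miR-542-3p were 0.653 (0.569 to 0.746) and 0.725 (0.590 to 0.882) with these tags. The ratios of miR-424-3p, miR-503 and miR-542-3p were thus less alike there, and their quotients were not nearly constant. Intervals of quotients were not computed for perfectly matching tags.

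The arms of a precursor were compared in the same way. Of the miR-424 reads, 80.5% came from the 5p arm at 180 days (78.8 to 82.0%), against 75.8% at 30 days (75.3 to 76.3%). Among perfectly matching tags these shares were 43.9% at 180 days and 38.4% at 30 days. Of the miR-542 reads, 1.10% came from the 5p arm at 180 days (0.227 to 3.18%), against 3.31% at 30 days (2.80 to 3.89%), so the intervals overlap although the ratio of quotients, 0.324, had an interval of 0.0657 to 0.977. For miR-450b the 5p arm held 91.8% at 180 days (86.8 to 95.3%), against 90.5% at 30 days (89.1 to 91.8%), which is within counting error. This share takes the reads listed as miR-450b-3p as the opposite arm of miR-450b, although their pig gene was not settled.

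miR-424-5p and miR-503 share their bases 2 to 7 with 5 miRNAs outside the cluster: miR-15a, miR-15b, miR-16, miR-195 and miR-497. These relatives also restrain the cell cycle, and they were higher in the 180-day library. miR-16 had 4203 reads (4932 RPM) at 180 days, against 16627 (2209 RPM) at 30 days, a ratio of 2.23 (2.16 to 2.31). miR-195 had a ratio of 2.20 (2.08 to 2.33) and miR-497 one of 2.43 (2.22 to 2.65). miR-15b and miR-15a, at 1.48 (1.38 to 1.59) and 1.46 (1.30 to 1.63), stayed under the 2-fold rule. With the minor arms, 5 of 7 measured arms of the relatives were called higher and none lower, against 29.6% and 11.3% of the 467 names and arms. Among those called higher were miR-15b* and miR-16*, opposite arms that are not among the carriers of the shared bases 2 to 7. The median log2 ratio of the 7 was 1.16. At the whole-library totals the ratios of all 5 relatives were also below 1. The lists also hold the names miR-16b and miR-15c, which were not counted with the relatives. They had ratios of 1.79 (1.57 to 2.04) and 0.716 (0.141 to 2.26), the latter from 3 reads at 180 days, and neither was called.

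The makeup of the reads with the shared bases 2 to 7, counted over the cluster's pair and the 5 relatives, differed between the libraries. miR-424-5p and miR-503 together held 25.5% of the reads of the 7 carriers at 180 days (24.6 to 26.3%), against 49.1% at 30 days (48.8 to 49.5%). Together the 7 carriers had 11996 RPM at 180 days, against 8528 RPM at 30 days, with a ratio of 1.41 (1.38 to 1.44). The cluster's pair had a ratio of 0.730 (0.701 to 0.759), while the 5 relatives summed to 2.06 (2.01 to 2.11). The difference between the pair and the relatives holds under any library total, whereas the direction of each against 1 does not.

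Of other miRNAs whose genes are X-linked in human, 38 had enough reads, of which 14 (36.8%) were called higher and 3 (7.89%) lower. Over the 467 names and arms these shares were 29.6% and 11.3%. Among the 14 were miR-506, miR-507, miR-508, miR-509-5p, miR-510, miR-513a and miR-514, which belong to the same cluster. The 38 are therefore not independent of each other. The median log2 ratio of the 38 was 0.69. The 3 lower ones were miR-222, miR-221 and miR-452, with ratios of 0.281 (0.264 to 0.299), 0.438 (0.412 to 0.465) and 0.350 (0.0935 to 0.923). The ratio was below 1 in 21.1% of the 38, against 8 of 8 cluster arms. Of the neighbouring cluster that holds MIR106A, miR-106a, miR-20b and miR-363 gave 1.96 (1.11 to 3.30), 2.69 (1.36 to 4.98) and 1.52 (1.15 to 1.97) as ratios. miR-363-3p and miR-20b*, listed as separate names, gave 1.05 (0.525 to 1.91) and 2.58 (0.937 to 6.16). The 3 names whose pair of RPM values lay nearest to that of miR-424-5p were miR-130a, miR-202-3p and miR-26b, by distance on the log10 scale over 2 libraries. Their ratios were 0.758 (0.721 to 0.797), 0.628 (0.597 to 0.660) and 1.02 (0.973 to 1.07).

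Cell type markers differed between the libraries as well. miRNAs of meiotic and later germ cells (miR-34b, miR-34c and the miR-449 group) had a sum of 35280 RPM at 180 days, against 11.7 RPM at 30 days, with 8 of 8 measured arms higher. The gonadal miR-202 names had 110872 RPM at 180 days, against 68481 RPM at 30 days, which goes with the label of testis. Of the 4 miR-202 names 1 was called higher and 2 had ratios below 1. The mesenchymal names (miR-199a, miR-199b and miR-214) had 40571 RPM at 180 days, against 62557 RPM at 30 days, with 6 of 6 below 1 and 1 called lower. Their summed ratio was 0.649 (0.641 to 0.656), beside 0.700 for the cluster. With the names miR-199, miR-199* and miR-199-3p, which carry no letter, the sum was 61324 RPM at 180 days, against 111099 RPM at 30 days, a ratio of 0.552 (0.547 to 0.557). Then 9 of 9 were below 1 and 4 were called lower. Endothelial miR-126 had 629 RPM at 180 days, against 381 RPM at 30 days, with 0 of 3 arms called. Smooth muscle names had 3 of 4 arms higher (17994 and 6581 RPM), striated muscle names 2 of 4 (6552 and 1432 RPM), and red blood cell names 1 of 4 (3933 and 1742 RPM). Of the red blood cell arms 3 of 4 had ratios below 1, and the higher sum came from miR-451 (3774 and 1535 RPM). The part of a changed cell makeup in the cluster's values was not tested.

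The form of the molecules was then compared, beginning with the 5′ end, which sets the seed. The 5′ end of the entry was carried by 96.9% of miR-424-5p reads at 180 days (96.0 to 97.6%), against 97.6% at 30 days (97.4 to 97.8%). For miR-503 this was 97.8% (96.4 to 98.7%) at 180 days and 98.7% (98.5 to 99.0%) at 30 days. miR-424-3p was less uniform, with 5.97% of its reads starting 1 base later at 180 days (4.003 to 8.51%), against 6.47% at 30 days (5.90 to 7.08%). miR-542-3p had 5.93% of reads starting 1 base earlier at 180 days (3.42 to 9.45%), against 5.999% at 30 days (5.30 to 6.76%). These starts move the seed by a base and took like shares at both ages.

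At the 3′ end, the leading forms of miR-424 took similar shares. The most read miR-424-5p tag lacked the last base of the human entry and is shown because the lists gave it the rat name miR-322, although it equals the human entry up to that base.
miR-424-5p, 21 bases: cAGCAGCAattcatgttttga
It made up 61.6% of miR-424-5p at 180 days (59.4 to 63.8%), against 60.8% at 30 days (60.2 to 61.5%). The tag 1 base shorter made up 12.6% at 180 days (11.2 to 14.2%), against 14.8% at 30 days (14.3 to 15.3%), and these intervals do not overlap. Among tags that matched the first 20 bases and went further, base 21 was A in 1423 reads and G in 0 at 180 days, against A in 15703 and G in 8 at 30 days. The rat entry departs from the human one at this base alone (A21G, counted from the 5′ end). Sorted by name, reads called miR-322 had a ratio of 0.784 (0.745 to 0.824) and reads called miR-424 one of 0.824 (0.723 to 0.935). For miR-424-3p the full-length tag made up 49.0% at 180 days (44.4 to 53.7%), against 48.8% at 30 days (47.7 to 50.03%).

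miR-503 had other 3′ ends in the 180-day library than in the 30-day library. Its reads ended at several places, many with 1 or more A that the entry lacks. The tags below show these ends, with the added bases in capitals.
full length: tagcagcgggaacagtactgcag
20 bases kept: tagcagcgggaacagtactg
20 bases kept, added A: tagcagcgggaacagtactgA
19 bases kept, added A: tagcagcgggaacagtactAA
18 bases kept, added A: tagcagcgggaacagtacAA
17 bases kept, added A: tagcagcgggaacagtaA
The full-length tag had 304 reads at 180 days and 3655 at 30 days. That made up 45.1% of miR-503 reads at 180 days (41.3 to 48.9%), against 36.8% at 30 days (35.9 to 37.8%).

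Shortened tags with added A made up 16.2% of miR-503 at 180 days (13.5 to 19.2%), against 24.1% at 30 days (23.3 to 24.96%). With the 20-base dog entry read as full length, they made up 5.49% at 180 days and 19.6% at 30 days. Among the forms with added A, those that kept the fewest bases differed most. Reads that kept 18 or fewer bases of the entry and had added A were 6 of 674 at 180 days, or 0.890% (0.327 to 1.93%). At 30 days they were 916 of 9922, or 9.23% (8.67 to 9.82%). Reads that kept 19 bases and had added A were 4.60% at 180 days (3.15 to 6.47%), against 10.3% at 30 days (9.73 to 10.9%). Those that kept 20 to 22 bases and had added A went the other way, with 10.7% at 180 days (8.45 to 13.3%), against 4.56% at 30 days (4.15 to 4.98%). Reads that kept 18 or fewer bases without an added base were also fewer at 180 days. They made up 0.445% at 180 days (0.0919 to 1.30%), against 2.47% at 30 days (2.17 to 2.79%). All of these were the 18-base tag. RNA was size-selected at 18 to 30 nucleotides, so shorter ends could be seen only with added bases. Without an added base, reads that kept 19 bases were 12.8% at 180 days and 13.8% at 30 days. Those that kept 20 to 22 bases without one were 8.46% and 6.23%.

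Tags of the same length were set beside each other. Among tags of 20 bases, the one that ends in 2 added A after 18 kept bases had 1 read at 180 days and 299 at 30 days. The one that keeps 20 bases had 42 reads at 180 days, against 427 at 30 days, with a ratio of 0.869 (0.617 to 1.19). Among tags of 18 bases both forms were fewer at 180 days. The one without an added base had 3 reads at 180 days and 245 at 30 days, and the one with added A had 1 and 224. The part of tag length in these differences was not tested. Tags of 20 or fewer bases held 22.4% of miR-503 reads at 180 days (19.3 to 25.7%), against 34.9% at 30 days (33.9 to 35.8%). Over all miRNA-matched reads they held 6.67% at 180 days and 7.33% at 30 days. Among 101 other names with 300 or more reads in each library, the median share of shortened tags with added A was 2.25% at 180 days and 1.75% at 30 days. Of these, 0 showed a drop in percentage points beyond the -7.94 of miR-503. Names with a small 30-day share could not drop that far, and only 1 of the 101 had a larger 30-day share than miR-503. The nearest drop was that of miR-202* at -5.71, with 8.14% at 180 days and 13.8% at 30 days. Relative to its 30-day share, miR-202* dropped more than miR-503. Moves also ran upward. The share of miR-143* was 40.5% at 180 days and 23.9% at 30 days, a difference of 16.7 points. For miR-101a it was 60.2% at 180 days and 53.3% at 30 days, a difference of 6.96 points. With 1 library per age, a difference in library preparation and a difference between the testes cannot be told apart.

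**Figure D4:**
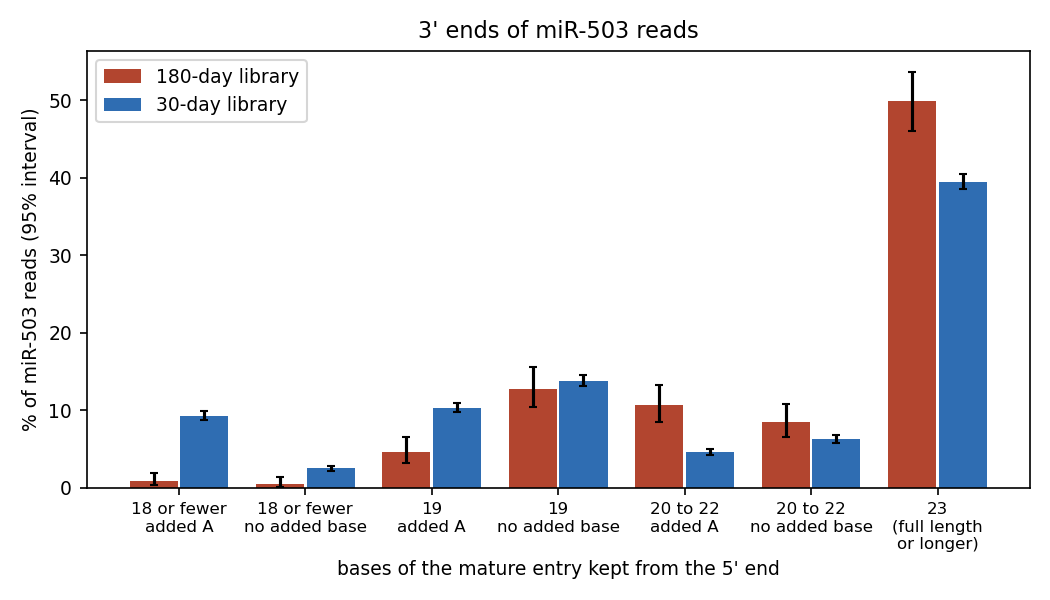
Share of miR-503 reads, in percent with exact 95% intervals as error bars, by the number of entry bases kept and whether A was added, in the 180-day library (left bar of each pair) and the 30-day library (right bar). Forms that keep 18 or fewer bases with added A stand at 0.890% at 180 days and 9.23% at 30 days, and those of full length or longer at 49.9% and 39.5%.

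miR-450b-5p also had other 3′ ends in the libraries. The tags shown differ by their last base.
21 bases: tTTTGCAAtatgttcctgaat
22 bases: tTTTGCAAtatgttcctgaata
The 21-base tag had 75 reads at 180 days and 527 at 30 days, that is, 44.6% of miR-450b-5p at 180 days (37.0 to 52.5%), against 30.7% at 30 days (28.5 to 33.0%). The 22-base tag had 13 reads at 180 days and 256 at 30 days, that is, 7.74% (4.18 to 12.9%) and 14.9% (13.3 to 16.7%). The lists name the shorter tag miR-450b and the longer miR-450b-5p. Reads called miR-450b had a ratio of 1.16 (0.957 to 1.41). Those called miR-450b-5p had a ratio of 0.508 (0.367 to 0.686). The ratio of the arm, 0.865, pools both.

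The identity of some miR-450 reads is uncertain, since the pig has MIR450A, MIR450B and MIR450C and the lists hold entries of other species. The full-length forms of miR-450a-5p differed at the last base (T22C, from the human entry to the tag).
as the human entry: tTTTGCGAtgtgttcctaatat
with the changed base: tTTTGCGAtgtgttcctaatac
Of tags that matched the first 21 bases and went further, 19 of 39 reads had C at 180 days, or 48.7% (32.4 to 65.2%), and 236 of 418 at 30 days, or 56.5% (51.6 to 61.3%). The most read tag named miR-450b-3p differed from the mouse entry at G19T and A21G, counted from the 5′ end of the entry. It had 8 of the 15 reads at 180 days and 75 of the 180 at 30 days. Which pig gene these forms come from was not settled.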

How the data were processed

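The authors deposited, for each pooled library, a list of sequence tags matched to known miRNAs of any species, giving every tag its raw read count and an alignment score. Per the labels' protocols, small RNA of 18 to 30 nucleotides was size-selected on a gel, amplified in 15 PCR cycles and read on an Illumina 1G machine. Neither aligner nor miRBase release nor genome build is given in the sources used here. The score was not used.

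Counts were summed by deposited name after dropping the species prefix and copy number. Rodent miR-322 was pooled with miR-424, and names without an arm were read as 5p (a star as 3p). Elsewhere names that differ in arm style were kept apart. RPM used all miRNA-matched reads of a library. Ratios have exact conditional and shares exact Clopper-Pearson 95% intervals (SciPy 1.17.1, Python 3.11.15). The 2-fold rule was applied to names that reached 20 reads in the libraries together. There were no replicates, so no test across ages was made. Whole-library totals assume that tag numbers are ranks of falling counts. They came to at least 12035098 reads at 180 days and 12711254 at 30 days. TMM (edgeR 4.0.16) and median-of-ratios (DESeq2 1.42.0) scaling were alternatives. An added A was counted where a tag with the entry's start kept 15 or more bases and then left the entry with A alone; a single differing base followed by matching bases counted as a mismatch. The interval and call code was tested on simulated data.

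The members, the lists and the rules were chosen with earlier results of these data known. Named are all members, their leading tags, the 3 names nearest to miR-424-5p and the main arms of the seed relatives. The comparison of miR-503 ends, and the other names given, were chosen after values were seen. So was the wider mesenchymal list.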

Additional observations from a re-analysis of the deposited data

How the results depend on the processing

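The ratio of the summed cluster was 0.700, and at the lowest whole-library totals 0.0837. The count of members called lower, 1 by the main rule, was 8 at the whole-library totals (84.4% of all names and arms tested), 4 with TMM (19.5%), 2 with median-of-ratios scaling (16.7%), 2 with tags of 2 or more reads (15.9%) and 0 with perfect tags (10.8%). No member was called higher under any of the 9 alternatives run on the count. The 5p share of miR-424 was 43.9% at 180 days and 38.4% at 30 days with perfect tags. Its most read tag, listed under rat miR-322, lacks a base of that entry and is not among the perfect tags. Reading the 20-base dog entry as full length, an alternative chosen after seeing the data, put miR-503 reads with added A at 5.49% at 180 days and 19.6% at 30 days. Of 188 alternative values, 124 kept their call, stayed within their interval or gave a like count. An uncalled ratio that crossed 1 without a call counted as kept. With perfect tags 35 values moved and 10 were kept. No called ratio turned round, but miR-542-5p was the only member called by the main rule. Uncalled values did turn with perfect tags: miR-450a-5p had a ratio of 1.21, miR-450b-5p one of 1.06, and miR-503 a cluster share of 35.4% at 180 days and 34.3% at 30 days. Assigning tags by best match moved 1 read at 180 days and 5 at 30 days into miR-424-5p. No paired analysis was possible because each age has 1 library. With 852209 reads at 180 days, arms under about 20 reads there are poorly measured.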
